A study of Trichoderma reesei with 12 samples.

Results

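Loss of the kinase gene tmk3 was examined in the filamentous fungus Trichoderma reesei kept in constant light, by comparing 3 RNA-seq libraries of the deletion strain with 3 of its parent. These 6 samples were taken by their labelled strain and light condition from the 12 of the series, the other 6 being the same strains in constant darkness. The parent is QM6a-delta-ku80, a derivative of QM6a. It lacks ku80, whose product joins broken DNA ends, and without it genes are replaced more easily at a chosen site. The labels give the parent's genotype as WT. The deletion strain, QM6a-delta-ku80-delta-tmk3, lacks ku80 as well as tmk3. Mycelium of both was harvested after 96 h at 28 °C in minimal medium with cellulose. No complemented strain and no second deletion line is named, so the loss of tmk3 and any other difference between these strains cannot be told apart. Below, "rose" and "fell" mean higher or lower in the deletion strain than in the parent.

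TMK3 is the mitogen-activated protein kinase of T. reesei that belongs to the Hog1 type. Kinases of this type end a phosphorylation cascade that carries osmotic and oxidative stress signals in yeasts and moulds. In the mould Aspergillus nidulans the equivalent cascade also takes part in the response to light. T. reesei is a plant-litter degrader used to make cellulases, and cellulase formation in this species is known to depend on light.

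The file gives read counts for 10879 gene models under identifiers such as TrE0391W, in which a letter for the series (7 in all) precedes a number and a final W or C. None of them matched (0 of 10879) the 9116 entries of the RefSeq gene table for assembly v2.0, and the file does not pair them with gene names, so no function is given here to any identifier. The exceptions are mat1-1-1, mat1-1-2 and mat1-1-3, genes of a mating-type locus. QM6a is known to be of the opposite mating type. The light parent held 1, 0 and 2 counts of mat1-1-1 and the light deletion strain 1, 1 and 1, while the other mat1-1 genes held 0 in every light library. The tmk3 transcript could not be looked up, so its absence was not checked in the counts.

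The light libraries held between 11599300 and 17702344 counts, and each parent library was deeper than each deletion library. Levels are in CPM, read counts scaled for TMM-adjusted library size, and the upper limit behind a count of 0 was 0.177 to 0.249 CPM by library (3 counts, counting error only). Along the first principal component (81.3% of the variance) the strains lay apart. Replicates 1 and 2 of the parent lay at opposite ends of the second component (20.4 and -27.8). Of 5301 genes with at least 20 CPM in the parent, 45 differed by at least 3-fold between its replicates, of which 37 were highest in replicate 2 and 34 lowest in replicate 1. In the deletion strain 27 of 5330 such genes did so, of which 19 were highest in replicate 3 and 18 lowest in replicate 2. Of the 45 genes 10 were called between the strains and of the 27 genes 6, against 36.0% of all tested genes.

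In constant light the strains differed in 3024 of 8405 tested genes (36.0%), at an adjusted p under 0.05 in edgeR's quasi-likelihood test fitted to these 6 libraries alone. The genes that rose numbered 1508 (17.9%) and those that fell 1516 (18.0%). By at least 2-fold, 693 rose (8.25%) and 635 fell (7.56%). By at least 8-fold in the fit, 148 of the 8405 rose and 133 fell, and by at least 32-fold 18 rose and 42 fell. Genes at 0 in a strain enter these classes by a fitted value that can exceed what their counts bound. With the 0 set to 3 counts for the group, TrD1422W (log2 fold change -7.37) was at least 19.0-fold lower. By the same floor TrG0294C (7.78) was at least 29.4-fold higher. Members of a run at the end of series D, described below, are among the falls. Among called genes the median log2 fold change was 0.89 for those that rose and -0.82 for those that fell, against -0.0022 over all genes tested. In 2999 of the called genes (35.7% of those tested) the 3 parent and the 3 deletion values did not overlap. Over all tested genes this held for 4281 (50.9%), so absence of overlap alone says little here. A further 73 genes changed by at least 2-fold without being called. Scaled by library totals alone, 2044 rose and 1111 fell, with the median of all genes at 0.11 on the log2 scale, so the split of rises and falls depended on the scaling. Without replicate 2 of the parent 4068 genes were called, 2909 of them among the 3024, with 2040 rises and 2028 falls, of which 836 and 632 were by at least 2-fold.

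**Figure D1:**
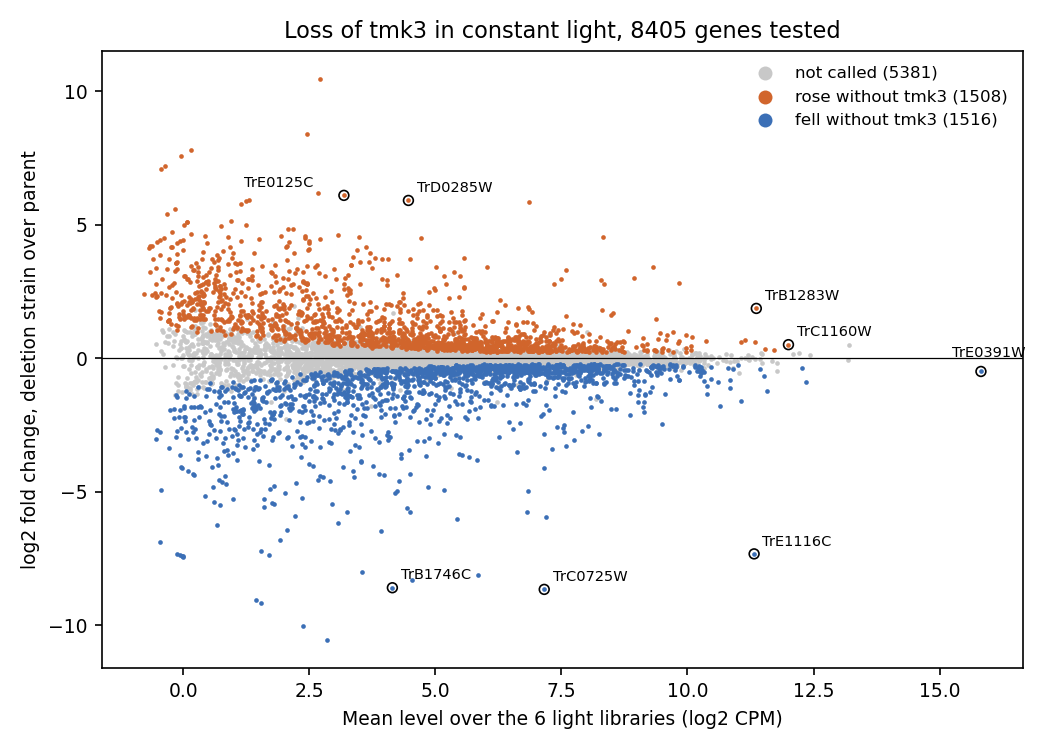
Log2 fold change (deletion strain over parent) against mean level (log2 CPM) for the 8405 tested genes in constant light, with genes that rose in orange, that fell in blue and that were not called in grey. Circles mark the named genes with the largest differences in CPM or in fold, among which TrE1116C combines a high level with a log2 fold change of -7.33.

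The changed genes took a different share of the reads in each strain. Genes that fell held 30.6%, 28.6% and 30.9% of the tested counts in the parent libraries and 19.4%, 21.4% and 20.5% in the deletion libraries. Genes that rose held 8.29%, 9.41% and 8.63% in the parent and 15.6%, 14.5% and 14.7% in the deletion strain. These shares describe genes picked by the same test and support nothing by themselves. The 100 genes with the most reads included 11 that rose and 31 that fell, against 17.9% and 18.0% of all tested genes. Their median log2 fold change was -0.10. By at least 2-fold 1 of the 100 rose and 7 fell, against 8.25% and 7.56% of all tested genes. The falls of this size lay near the share over all genes. In the highest of 5 equal groups of tested genes by level, 1.31% rose and 3.39% fell by at least 2-fold.

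Rises and falls were spread unevenly over levels. With tested genes ordered by level and cut into 5 equal groups, the lowest group lay at 0.454 to 7.21 CPM, and in it 30.6% rose and 21.2% fell. In the highest group, from 132 CPM upward, 11.8% rose and 20.2% fell. The median log2 fold change of all genes in a group went from 0.20 in the lowest to -0.08 in the highest. Large changes were concentrated at low levels, where the standard error was also larger (median 0.33 in the lowest group against 0.09 in the highest): 26.9% of the lowest group rose by at least 2-fold, against 1.31% of the highest. A gene near the filter on low counts enters the test through the strain in which it is higher, so the share called in the lowest group is not support for a larger effect there.

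**Figure D2:**
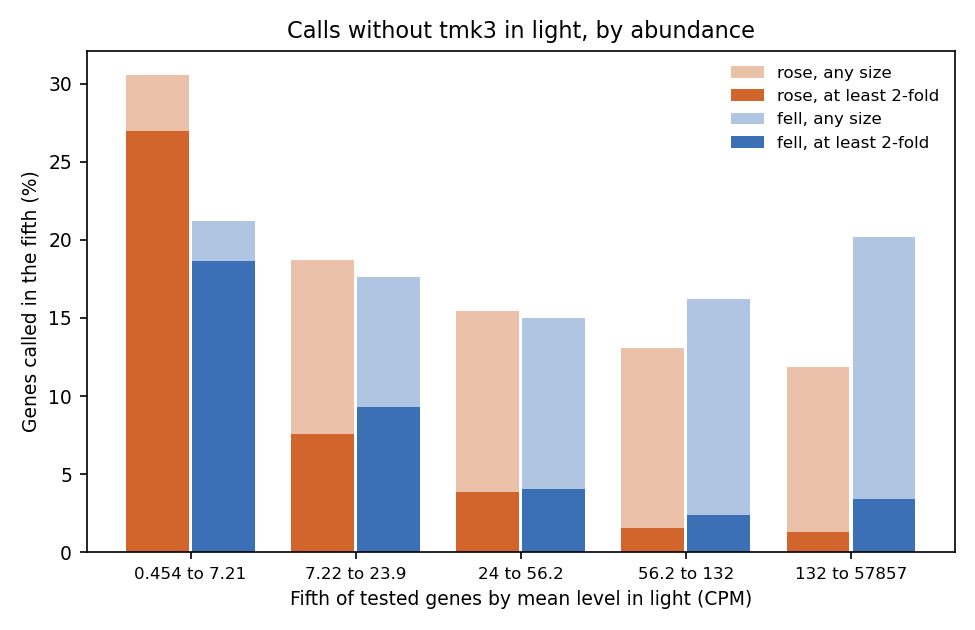
Percentage of genes called in each of 5 equal groups of the tested genes, ordered by mean level in light (CPM), with rises in orange and falls in blue; the darker part of a bar is the share with at least 2-fold change. Rises decline from 30.6% to 11.8% from the lowest to the highest group, while falls are 21.2% and 20.2% at the ends.

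The file has no gene lengths, so an order of CPM between genes is an order of reads and not of transcripts. The gene with the most reads in both strains was TrE0391W. It stood at 64146, 63771 and 75336 CPM in the parent and at 39542, 55123 and 49222 CPM in the deletion strain, or 6.51% ± 0.546 of all counts against 4.97% ± 0.751 (SD, n = 3). Every deletion library was below every parent library, and the gene fell by 0.50 on the log2 scale (SE 0.13, edgeR adjusted p = 0.0192). The call was lost without replicate 3 of the parent (-0.42, edgeR adjusted p = 0.0729) and in the fit to all 12 libraries (edgeR adjusted p = 0.609), which takes its spread from the dark libraries too.

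The next largest loss of reads was far steeper. TrE1116C stood at 6168.5, 4049 and 5038 CPM in the parent and at 35.8, 34.9 and 24.1 CPM in the deletion strain. The lowest parent library thus lay far above the highest deletion library, and the gene fell 161-fold (log2 fold change -7.33, SE 0.24, edgeR adjusted p = 6.57e-07). Its mean went from 5085 ± 1060.5 to 31.6 ± 6.53 CPM (SD, n = 3). In darkness the same gene was at 182 ± 74.2 CPM in the parent and 99.7 ± 7.42 CPM in the deletion strain. There the log2 fold change was -0.86 in the fit to all 12 libraries, and the difference between light and darkness was -6.47 (SE 0.42, edgeR adjusted p = 2.49e-05). The parent level was thus higher in light than in darkness, and the deletion strain level lower in light than in darkness, differences that were not tested.

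The largest gains in reads were smaller in fold. TrB1283W stood at 1232, 1064 and 1117 CPM in the parent and at 5107, 3414 and 3893 CPM in the deletion strain. All deletion libraries were above all parent libraries, by 3.64-fold in the fit (log2 fold change 1.86, SE 0.15, edgeR adjusted p = 4.84e-05). TrC1160W stood at 3038, 3859 and 3278 CPM in the parent and at 3647, 5376 and 5422 CPM in the deletion strain. Replicate 1 of the deletion strain lay below replicate 2 of the parent, so the groups overlapped. The log2 fold change was 0.51 (SE 0.16, edgeR adjusted p = 0.0382), and the call was lost when replicate 1 or 3 of the parent, or replicate 2 or 3 of the deletion strain, was left out (0.41 to 0.48, edgeR adjusted p between 0.106 and 0.126), and in the fit to all 12 libraries (edgeR adjusted p = 0.263).

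The largest rises in fold, among called genes with a mean of at least 3 on the log2 CPM scale and no overlap between strains, were from near 0. TrE0125C held 4, 4 and 3 counts in the parent and 220, 253 and 201 in the deletion strain. Its level rose from 0.254 ± 0.0280 to 18.0 ± 1.37 CPM (SD, n = 3), by 6.10 on the log2 scale (SE 0.22, edgeR adjusted p = 8.53e-07). TrD0285W held 9, 13 and 9 counts in the parent against 524, 560 and 545, a rise of 5.91 (SE 0.18, edgeR adjusted p = 4.46e-07). For both, replicates of a strain differed little beside the gap between strains.

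The largest falls by the same rule left almost no reads. TrC0725W stood at 263, 300 and 290 CPM in the parent and at 1.14, 0.920 and 0 CPM in the deletion strain, where 14, 12 and 0 reads were counted. The log2 fold change was -8.66 (SE 0.39, edgeR adjusted p = 2.84e-06). TrB1746C held 529, 660 and 317 counts in the parent and 2, 1 and 0 in the deletion strain. With 3 counts left, the ratio of group totals was 433 (95% exact interval 148 to 2101, which covers counting error only). It was called when any 1 of the 6 light libraries was left out.

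**Figure D3:**
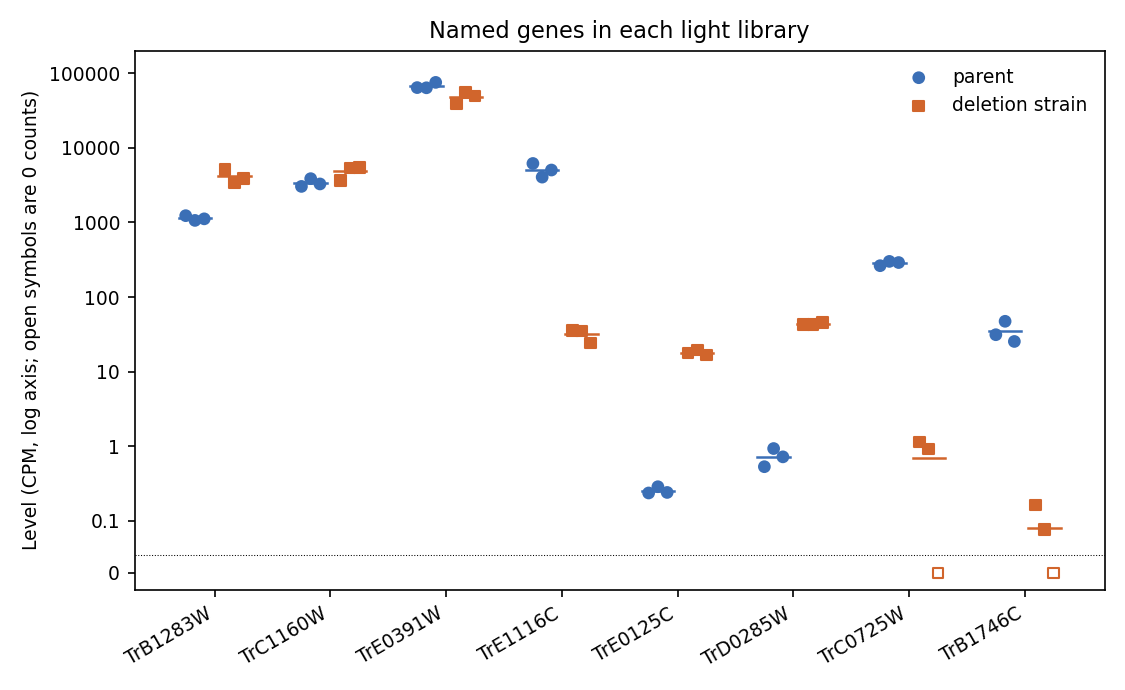
Level (CPM, log axis) in each of the 6 light libraries for the genes named by the largest difference in CPM (left 4) and in fold (right 4); circles are parent and squares deletion libraries, lines are group means, and open symbols below the dotted line are 0 counts. The strains are apart for all but TrC1160W, whose lowest deletion library (3647 CPM) lies below the highest parent library (3859 CPM).

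Some genes were at 0 in all 3 libraries of a strain while every library of the other held at least 10 counts. This was so for 5 genes in the parent and 11 in the deletion strain. Each parent library was deeper than each deletion library, and with every library thinned to 11599300 counts the numbers were 7 and 11. TrA0032W had 0 counts in the parent and 229, 113 and 145 in the deletion strain, at least 188-fold higher when its 0 is set to a floor of 3 counts for the parent group. It also held 0 counts in all 6 dark libraries, so its reads came from the deletion strain in light alone among the 4 groups. TrG0294C had 0 counts in the parent and 30, 24 and 22 in the deletion strain, at least 29.4-fold higher. In the opposite direction TrD1425W had 178, 263 and 154 counts in the parent and 0 in the deletion strain, at least 171-fold lower. TrD1434C had 303, 55 and 83 counts against 0, at least 127-fold lower, with replicate 1 of the parent far above the others. Of the 11 genes at 0 in the deletion strain, 7 had identifiers in the last numbers of series D.

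Those last numbers formed the longest run of falls. Genes with successive numbers under a letter were taken as neighbours, which the file itself does not state. All 17 tested identifiers from TrD1410W to TrD1441C fell by at least 2-fold, against 7.56% of all tested genes. The next longest run of falls had 7 members and the longest run of rises 5. The length of a run depends on which genes are tested: with at least 50 counts required in every library of a strain the run had 9 members, and with no filter it was broken into runs of at most 5, as 20 of 27 tested identifiers from TrD1410W on fell by at least 2-fold and none was called as a rise (0 of 27). That this stretch falls was known from earlier results of these data, so its choice supports nothing. The median log2 fold change in the run was -6.80, or -5.75 with the 7 members that held 0 counts in the deletion strain set to their bound. Together the 17 held 2692, 3912 and 2246 counts in the parent and 63, 60 and 29 in the deletion strain. Their summed level went from 206 ± 64.8 to 4.04 ± 1.44 CPM (SD, n = 3), which left 1.96% of the parent level.

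Within the run the depth of the fall differed between members and did not follow the numbers throughout. At its start TrD1410W fell from 5.59 ± 1.16 to 0.725 ± 0.108 CPM, by 2.94 on the log2 scale (SE 0.29), and kept 9, 8 and 10 counts in the deletion strain. TrD1414C, the shallowest member, had -1.48 on the same scale, and TrD1415W and TrD1416C had -2.64 and -2.16. TrD1417C held 444, 964 and 386 counts in the parent and 16, 13 and 3 in the deletion strain. Its log2 fold change was -5.61, and that of TrD1440W, near the end of the run, was -5.75. From TrD1420C to the last identifier, TrD1443C, the parent held 2120, 2805 and 1755 counts and the deletion strain 23, 20 and 4, or 0.800% of the parent level. Of these 24 identifiers 12 were tested and 12 fell, 8 held too few counts to be tested (at most 34 over the libraries of a strain), and 4 held 0 counts in all light libraries. TrD1421C, among the 8, had 1 count in the deletion strain and 0 in the parent.

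The reads that did remain lay in a few members. TrD1424C held 605, 772 and 575 counts in the parent and 3, 2 and 0 in the deletion strain (log2 fold change -8.32, SE 0.38, edgeR adjusted p = 3.07e-06). TrD1440W held 406, 994 and 444 counts in the parent and 15, 11 and 4 in the deletion strain, 30 of the 47 counts left in the last 24 identifiers. TrD1438C and TrD1427W held 296 and 117 counts in the parent group against 2 and 1, ratios of 128 (95% exact interval 35.02 to 1059) and 101 (17.8 to 4018). Summed over the last 24 identifiers, replicate 3 of the deletion strain had the fewest reads, and replicate 2 of the parent the most. Single members differed from this order, as TrD1427W with 42, 39 and 36 counts in the parent.

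The numbers just before the run went both ways. The genes named here were picked with their values in view. TrD1402W rose from 6, 2 and 3 to 30, 29 and 14 counts. TrD1405C fell from 86, 64 and 60 to 4, 2 and 6 counts. TrD1406C went from 0, 2 and 0 to 32, 21 and 17 counts and TrD1407W from 8, 31 and 6 to 195, 100 and 121, both called as rises. TrD1408C rose from 16.5 ± 0.707 to 25.5 ± 1.68 CPM, or 0.62 on the log2 scale (SE 0.11, edgeR adjusted p = 0.00264). TrD1403C (-0.18) and TrD1404W (-0.11) were not called.

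**Figure D4:**
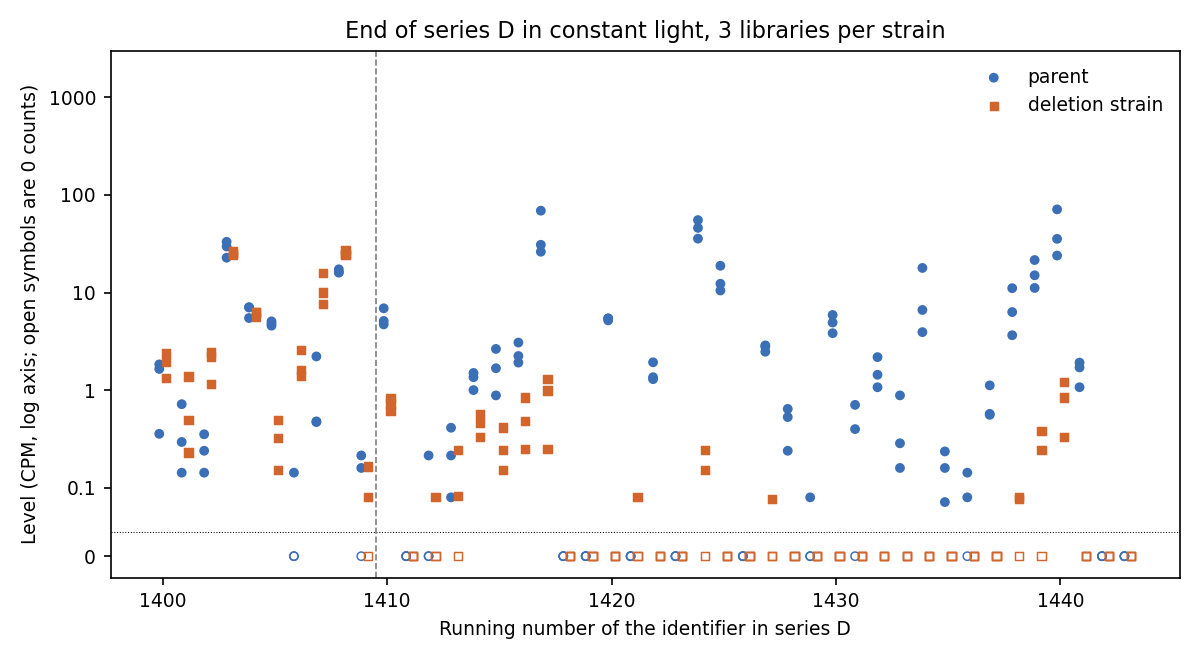
Level (CPM, log axis) of each identifier from TrD1400C to TrD1443C in the 3 parent (circles) and 3 deletion (squares) libraries in constant light; open symbols below the dotted line are 0 counts, and the dashed line precedes TrD1410W. To its right every tested identifier is lower in the deletion strain, while TrD1406C and TrD1407W to its left are higher.

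The other runs of at least 5 tested neighbours changing the same way by at least 2-fold were shorter and shallower. From TrG0129W to TrG0135W 5 genes fell, their summed level going from 118, 107 and 116 CPM in the parent to 9.26, 10.7 and 7.22 CPM in the deletion strain. TrG0131C carried most of this, at 99.5, 85.9 and 96.1 CPM against 7.47, 8.59 and 5.56 CPM (log2 fold change -3.70, SE 0.16, edgeR adjusted p = 2.19e-06). From TrF0392C to TrF0409C 5 tested genes among 18 identifiers fell, from 79.5 ± 8.60 to 10.6 ± 2.58 CPM (SD, n = 3). TrF0392C went from 336, 240 and 253 counts to 11, 17 and 10. All 5 members of each of these runs also fell in darkness in the fit to all 12 libraries, where 21.6% of 8998 genes fell and 19.1% rose. The members were chosen by their light calls, so these counts are a description.

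Series F held 2 further runs of 5 falls close to each other, at its low numbers. From TrF0017C to TrF0025W the sum went from 98.6 ± 1.27 to 20.5 ± 1.59 CPM, with TrF0017C at 63.4, 60.6 and 64.8 CPM in the parent and 9.18, 8.90 and 8.05 CPM in the deletion strain. From TrF0028C to TrF0033C it went from 78.8 ± 16.2 to 19.9 ± 2.75 CPM, with TrF0029W at 37.2, 60.2 and 49.2 CPM against 12.6, 9.28 and 11.5 CPM. In series A, 7 genes from TrA0038C to TrA0046W fell from 40.0 ± 5.38 to 11.3 ± 0.512 CPM, and TrA0044C carried the most counts, with 329, 286 and 191 against 66, 60 and 62. From TrD0129C to TrD0133W 5 genes fell from 29.1 ± 2.59 to 5.71 ± 0.233 CPM. In all of these the summed levels of the strains did not overlap, which follows from the choice of members by their calls. In the fit to all 12 libraries 3 of 5 members fell in darkness in each of these runs of series F. In the series A run 2 of 7 did so, and from TrD0129C to TrD0133W 2 of 5.

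The only run of 5 rises went from TrA1181W to TrA1185C. The sum of its members was 21.2, 20.8 and 22.7 CPM in the parent and 72.0, 67.1 and 62.5 CPM in the deletion strain, 3.11-fold higher. TrA1181W rose from 6.91 ± 0.993 to 27.7 ± 1.41 CPM, or 1.99 on the log2 scale (SE 0.14). The last member, TrA1185C, held few reads, 5, 3 and 11 counts against 36, 30 and 8, and its groups overlapped. Its log2 fold change was 2.12 (SE 0.66, edgeR adjusted p = 0.0353), and the call was lost without replicate 1 or 2 of the parent and without replicate 1 or 2 of the deletion strain (1.74 to 2.003, edgeR adjusted p between 0.0610 and 0.122), in the fit to all 12 libraries (edgeR adjusted p = 0.129) and with the replicate number as a block (edgeR adjusted p = 0.0966). Shorter runs were common in both directions: 107 runs of at least 2 rises and 115 runs of at least 2 falls were present.

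The deletion effect in light was set against that in darkness by the interaction of strain and light in the fit to all 12 libraries. It was called for 1269 of 8998 genes (14.1%), with 575 higher in light (6.39%) and 694 lower (7.71%). These counts were unstable: leaving out the dark parent's replicate 2 gave 1958 and leaving out the light deletion strain's replicate 2 gave 842, those higher in light ran from 354 to 900 with 1 library left out, and scaling by library totals gave 345 higher and 715 lower. Of the 1508 genes that rose in light it was called for 321 (21.3%), and of the 1516 that fell for 363 (23.9%). Both shares lie above the background, as they must where a gene enters through its light effect. Among the 321, 110 also rose in darkness, 108 fell there and 103 were not called there. Among the 363, 91 also fell in darkness, 111 rose there and 161 were not called there. Over all 8998 genes 19.1% rose and 21.6% fell in darkness, but a called interaction itself favours genes whose dark effect differs, so the splits are a description. For the remaining 1187 and 1153 genes the interaction was not called, which does not show that their effects were equal.

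Among the named genes this difference was called for TrE1116C, as given above, and for the gene with the most reads. TrE0391W was at 9.77 ± 5.52 CPM in the dark parent and 57.4 ± 39.3 CPM in the dark deletion strain, higher by 2.56 on the log2 scale there although the dark groups overlapped, and the interaction was -3.06 (SE 0.84, edgeR adjusted p = 0.0350). The call was lost in 10 of 16 alternatives, with edgeR or DESeq2 adjusted p up to 0.0881. TrE0125C was at 0.411 ± 0.298 and 10.2 ± 1.30 CPM in the dark strains, higher without tmk3 in every dark library, and its interaction of 1.52 (SE 0.58, edgeR adjusted p = 0.112) was not called. Without replicate 2 of the dark parent it was called (1.91, edgeR adjusted p = 0.00719). In the run at the end of series D the interaction was called for 0 of 17 tested members in edgeR and 0 in DESeq2, with 3 and 4 at an unadjusted p under 0.05. TrD1430C, TrD1432C and TrD1434C held 0 counts in every deletion library of both conditions, so they could not be called (edgeR SE 3636 to 17629). Other members had wide errors, as TrD1425W with SE 2.82. The absence of calls thus does not show equal effects in light and darkness. In addition 14 of the 17 fell in darkness too, against 21.6% of all genes, where the summed level was 821 ± 228 CPM in the parent and 35.5 ± 27.5 CPM in the deletion strain (SD, n = 3). In the run of series A the interaction was called for 4 of 7 members. TrA0046W, the last of that run, fell in light, from 56, 50 and 38 to 4, 10 and 7 counts. It was higher without tmk3 in darkness, with 28, 58 and 51 counts against 11, 2 and 25 (interaction -4.16, SE 0.83, edgeR adjusted p = 0.00734). TrA0043W of the same run, which the rules for naming did not pick, also fell in light. In darkness it held 177, 294 and 427 counts without tmk3 against 54, 77 and 62 in the parent (interaction -3.00, SE 0.47, edgeR adjusted p = 0.00217).

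**Figure D5:**
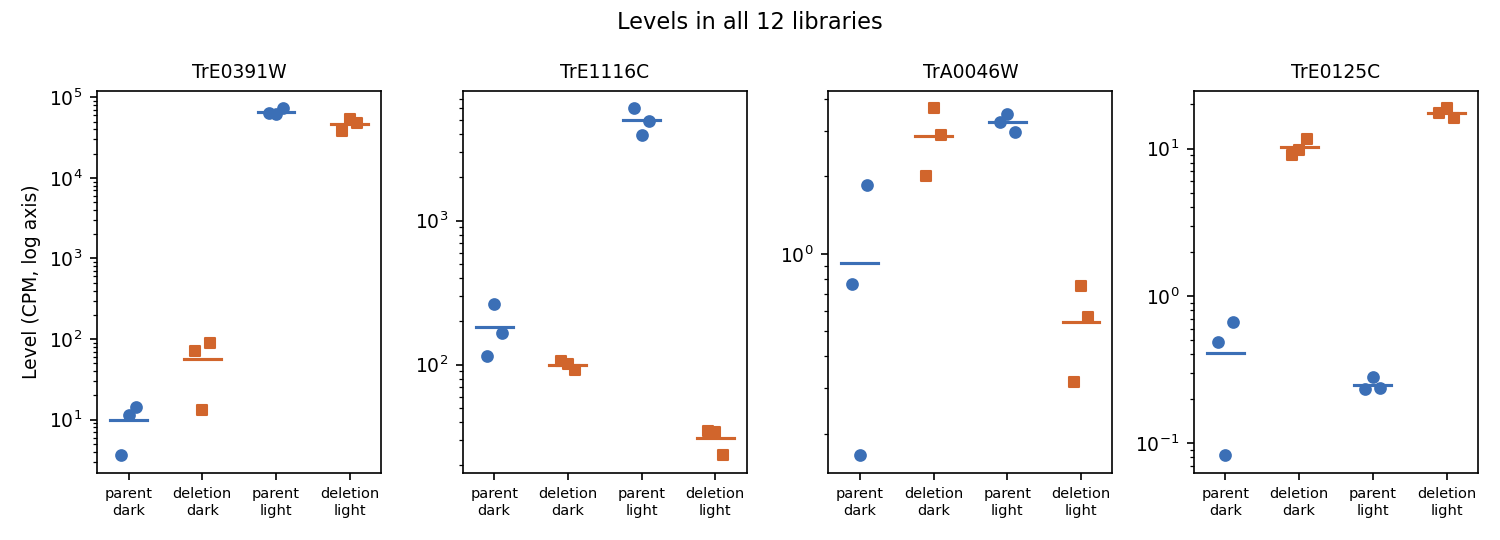
Level (CPM, log axis, scaled over all 12 libraries, a separate range in each panel) of TrE0391W, TrE1116C, TrA0046W and TrE0125C in parent (circles) and deletion strain (squares) libraries in darkness and in light, with lines at group means. TrE1116C is high in the light parent alone, TrA0046W differs in opposite directions in darkness and light, and TrE0125C is higher without tmk3 in both.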

How the data were processed

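The authors deposited whole-number read counts per gene model, not normalized. Per the submitters' processing notes HISAT2 2.2.1 was used, and the series' design text names a QM6a transcript set. The deposited table's name gives featureCounts as the counting tool, while its version, strand setting and filters remain not given in the sources used here, so overlapping genes and near-identical copies have uncertain counts. All 12 columns carried a sample's label and 0 were unused. Whether the 3 samples in a group came from separate cultures is not labelled. The p-values then reflect only how these samples vary, possibly for technical reasons.

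The 6 light libraries were fitted alone in R 4.3.3 with edgeR 4.0.16 (filterByExpr, 8405 genes, TMM scaling, quasi-likelihood F test, Benjamini-Hochberg adjustment over all tested genes, call at adjusted p under 0.05). The common coefficient of variation was 0.144. The interaction used all 12 libraries and 8998 genes. The SE is the absolute log2 fold change over the root of F and is unreliable where a group holds few counts. Percent of tested counts refers to tested genes, which held at least 99.95% of each library. For the principal components, log2 CPM had a prior count of 2. DESeq2 1.42.0 was an alternative. The procedure was tested on simulated data in which only genes with at least 50 expected counts were changed. Changes at low counts were thus not covered.

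Named genes were the 2 rises and 2 falls with the largest difference in CPM, and with the largest fold among called genes without overlap whose mean log2 CPM was 3 or more; the 2 highest genes at 0 in each strain; the first, last and most counted member of each run of at least 5; the gene with the most reads; the mating-type genes; and the end of series D. The members, lists and rules were chosen with earlier results of these data known. Lists by gene function could not be applied without gene names. Replicate numbers were not used as pairs. Each pair of replicates differed by more than sampling noise (chi-square over its degrees of freedom, 12.4 to 64.6).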

Additional observations from a re-analysis of the deposited data

Results flagged for a closer look

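For 10 of the 45 named genes tested (22.2%) the deletion effect in light differed from that in darkness by the interaction test (edgeR, 12 libraries). The share is close to the 21.3% and 23.9% among all genes that rose or fell in light. The 45 include TrA0032W, TrD1430C, TrD1432C and TrD1434C, which could not be called, since groups in both conditions held 0 counts. The light effect was the lower for 9 of them. TrE1116C (-6.47) and TrE0391W (-3.06) are described above. In the run of series A, TrA0046W had -4.16 and TrA0038C -1.46. In series F, TrF0017C had -2.53 and TrF0028C -2.67. TrF0017C stood at 26.1 ± 14.99 CPM in the dark parent and 20.8 ± 3.44 CPM in the dark deletion strain, so its fall in light had no called counterpart there (edgeR adjusted p = 0.476). In series G, TrG0135W had -2.50 and TrG0131C -0.99, and both also fell in darkness, by less than in light. TrA1181W rose in both conditions, by less in light (-1.24). TrC1160W had 1.59: it was lower without tmk3 in darkness, at 301 ± 62.1 against 637 ± 259 CPM, and higher in light.

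The calls for TrE1116C, TrA0046W, TrF0017C, TrF0028C and TrG0135W were kept in all 16 alternatives. Those for TrA0038C, TrE0391W, TrC1160W, TrG0131C and TrA1181W were lost in 11, 10, 9, 8 and 5 of 16. TrE0125C and TrB1283W, not called in the main fit, were called without replicate 2 of the dark parent (edgeR adjusted p = 0.00719 and 0.0342). Groups of 3 libraries are too small for a test of single outlying samples.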

How the results depend on the processing

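Counts of called genes stayed within 1.5 times of 3024 except in the fit to all 12 libraries (1849, 969 rises, 880 falls, 1759 of them among the 3024) and at an adjusted p under 0.01 (1721, 857 and 864). Leaving out 1 light library gave 2181 to 4068. No gene called under any alternative and among the 3024 changed direction (0 in each). Requiring 50 counts in every library of a strain left 382 rises of at least 2-fold against 693, since it removes low genes. The longest run of falls, 17 genes, was 9 of the same stretch with the 50-count filter, which tests fewer genes, and 15 to 17 otherwise, except with no filter, where it was 6 genes of series A and the end of series D held 3 separate runs of 5. At least 5 or 20 counts in the other strain gave 22 or 5 genes at 0 in the deletion strain and 14 or 2 in the parent. With each library thinned to 11599300 counts, an alternative chosen after seeing the data, 2940 genes were called, and 11 and 7 were at 0.

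With a replicate block, built on the replicate numbers alone, 2519 genes were called, and 958 for the interaction. Deviations from group means correlated at -0.21, -0.08 and 0.05 between same-numbered light libraries, and at -0.12 to 0.20 between differently numbered ones. With 3 libraries in a group these values cannot show whether same-numbered libraries were handled together. The interaction gave 842 (without the light deletion strain's replicate 2) to 1958 (without replicate 2 of the dark parent) with 1 library left out, 354 to 900 higher and 463 to 1058 lower. Those higher in light were 354 to 379 without replicate 1 or 3 of the light parent or replicate 1 or 2 of the light deletion strain, 345 by library totals and 886 by DESeq2. The cause was not tested. Of 43 named genes, 3 lost their light call in some alternative (13 of 626 values) and 0 reversed. At these depths 0 counts in a library allow up to 0.249 CPM.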

Other observations

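Calls were present in all 7 letter series. The share of tested genes that fell by at least 2-fold was 12.5% in series F (99 of 791), against 6.31% to 8.32% in the other 6 series, and the median log2 fold change was -0.07 in series F and between -0.02 and 0.01 elsewhere. Rises of at least 2-fold ranged from 7.27% in series C to 9.23% in series F. Between the letters W and C the shares were close, with 8.23% and 8.26% rising and 7.36% and 7.74% falling by at least 2-fold. These are descriptions with no test, since neighbouring genes are not independent.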
